A study of Homo sapiens with 16 samples.

Results

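The genes described here encode the inhibitors of cyclin-dependent kinases (CDKs) and a pair of tumour suppressors on which those kinases act: CDKN1A, CDKN1B, CDKN1C, CDKN2A, CDKN2B, CDKN2C, CDKN2D, RB1 and RBL2. Every window of the table of transcription start sites (TSS) that carries one of these 9 symbols was taken, and alternative starts were kept apart. This gave 69 of 272902 rows, which are 65 of 237274 windows with distinct coordinates, since transcripts that share a start repeat a window. Each window spans 2000 bp, 1 kb to either side of a TSS. Of the 65 windows, 60 lie on chromosomes, where overlapping windows of a gene form 25 start clusters, and 5 lie on an alternative contig of chromosome 11 and belong to CDKN1C. The members were chosen by gene name, with earlier results of these data known.

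ChIP-seq and input libraries came from BJ-5ta cells, human foreskin fibroblasts immortalised with telomerase (hTERT). In ChIP-seq, antibody-bound fragments of fixed, sonicated chromatin are sequenced, and the input is the chromatin without that selection. The labels call the antibody H3, while the methods of the study name H3K9me2, dimethylated lysine 9 of histone H3, which is found in silent chromatin. Wild type (WT) cells and ΔLEO1 cells, a single clone knocked out with CRISPR/Cas9 plasmids against LEO1, a subunit of the PAF1 complex, were either proliferating in 10% serum or quiescent after 10 days in 0.1% serum. The 4 conditions had 2 ChIP and 2 input libraries each, marked A and B. The ΔLEO1 10% serum ChIP library A held 54 reads over all windows and was left out, so that condition had 1 ChIP library and the other 3 had 2. No source states that A and B were separate cultures, so p-values may measure technical spread only.

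The CDK inhibitors fall into families. CDKN2A (p16), CDKN2B (p15), CDKN2C (p18) and CDKN2D (p19) are the INK4 proteins, which bind CDK4 and CDK6, and a second start of CDKN2A gives ARF, a protein that binds and inhibits the ubiquitin ligase MDM2. CDKN1A (p21), CDKN1B (p27) and CDKN1C (p57) are the Cip/Kip proteins, which act on CDK2 complexes and other cyclin-CDK complexes. RB1 and RBL2 (p130) are pocket proteins that hold E2F factors and keep S-phase genes off until CDKs phosphorylate them, and RBL2 is known as the main pocket protein of the DREAM complex in quiescent cells. Active promoters of such genes usually lie in CpG islands, and H3K9me2 is usually low there.

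RefSeq promoter sequences (build GRCh38.p14) were found for 12 starts of 8 of the genes. The 250 bases before the start are printed for 6 of them, because they span the range of ChIP signal seen at RefSeq starts, from CDKN1B with the least to the internal RB1 start with the most, and because CDKN2A and RBL2 each have a pair of starts that can be compared. Bases run 5′ to 3′ on the strand of the gene, and capitals mark CpG dinucleotides.
CDKN1B (chr12:12717118-12717367, plus strand): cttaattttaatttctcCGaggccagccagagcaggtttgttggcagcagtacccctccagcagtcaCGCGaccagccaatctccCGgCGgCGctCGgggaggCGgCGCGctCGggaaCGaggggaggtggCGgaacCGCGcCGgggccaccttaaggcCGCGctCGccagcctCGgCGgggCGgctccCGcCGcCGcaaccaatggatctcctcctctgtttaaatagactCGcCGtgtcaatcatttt
CDKN2A, p16 start (chr9:21974858-21975107, minus strand): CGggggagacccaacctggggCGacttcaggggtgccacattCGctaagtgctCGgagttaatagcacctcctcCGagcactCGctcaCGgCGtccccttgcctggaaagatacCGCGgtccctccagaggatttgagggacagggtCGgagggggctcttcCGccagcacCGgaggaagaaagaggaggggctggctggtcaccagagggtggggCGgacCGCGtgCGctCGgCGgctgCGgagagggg
CDKN2A, ARF start (chr9:21995325-21995574, minus strand): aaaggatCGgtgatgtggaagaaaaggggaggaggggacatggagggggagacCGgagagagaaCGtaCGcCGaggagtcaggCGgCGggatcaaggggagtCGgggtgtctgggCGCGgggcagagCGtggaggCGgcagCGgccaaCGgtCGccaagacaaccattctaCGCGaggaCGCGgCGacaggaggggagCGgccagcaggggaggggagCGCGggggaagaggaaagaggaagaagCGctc
RB1, internal start (chr13:48476200-48476449, plus strand): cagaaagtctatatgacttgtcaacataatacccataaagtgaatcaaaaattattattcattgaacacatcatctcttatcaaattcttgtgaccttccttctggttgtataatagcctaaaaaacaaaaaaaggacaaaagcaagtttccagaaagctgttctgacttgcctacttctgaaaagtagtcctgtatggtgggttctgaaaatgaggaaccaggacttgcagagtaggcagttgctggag
RBL2, 5′ start (chr16:53434221-53434470, plus strand): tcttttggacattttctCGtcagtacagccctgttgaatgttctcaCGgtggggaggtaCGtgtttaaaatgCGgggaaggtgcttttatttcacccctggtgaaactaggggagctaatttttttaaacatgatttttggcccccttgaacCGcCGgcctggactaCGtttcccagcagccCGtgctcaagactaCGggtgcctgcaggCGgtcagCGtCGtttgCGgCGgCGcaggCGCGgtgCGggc
RBL2, downstream start (chr16:53435369-53435618, plus strand): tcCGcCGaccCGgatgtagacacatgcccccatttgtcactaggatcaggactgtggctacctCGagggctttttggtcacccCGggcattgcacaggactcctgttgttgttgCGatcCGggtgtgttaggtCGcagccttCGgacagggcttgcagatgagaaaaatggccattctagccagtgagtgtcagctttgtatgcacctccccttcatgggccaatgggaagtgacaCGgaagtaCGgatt
The CDKN1B stretch held 27 CpG, the p16 stretch 20, the ARF stretch 24, the 5′ RBL2 stretch 18, the downstream RBL2 stretch 11 and the internal RB1 stretch 0.

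The 7 ChIP libraries held 2153836 to 3696942 reads over all windows, and the 8 inputs 3267811 to 9238282. In a ChIP library, 1 read in a window therefore corresponds to 0.267 to 0.468 CPM, the normalised read count scaled to a common library size, and counts under about 10 carry a wide counting error. CPM values are scaled by library total and trimmed mean of M-values (TMM) within ChIP or within input. The median window had 3.05 CPM in ChIP and 4.02 CPM in input. The window at the 5′ end of LEO1 was not lost in the inputs of ΔLEO1 cells, with 16 to 24 reads against 26 to 53 in wild type and no call (log2 fold change −0.25 ± 0.29 (SE) in 0.1% serum and −0.56 ± 0.28 in 10% serum), so these counts do not check the knockout. No RNA was measured in these libraries, and the identity of the cells was not checked. The inputs of ΔLEO1 cells in 10% serum differed most between A and B, with a chi-square per degree of freedom of 1.62 over windows against 1.01 to 1.13 in the other input groups.

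At most of the RefSeq starts of these genes, normalised ChIP reads were fewer than normalised input reads. Of the 65 windows, 54 passed the filter on low counts when ChIP and inputs were fitted together, from every gene but CDKN1C. ChIP relative to input was lower in 32 and higher in 14 (edgeR quasi-likelihood test, adjusted p under 0.05, mean of the 4 conditions), and 8 windows were not called. Of all windows tested, 75.5% were called, 39.1% lower and 36.4% higher. Figures for all windows, here and below, count rows with repeated windows, unless distinct windows are named. Of distinct windows tested, 37.7% were lower and 37.4% higher. The median log2 ratio was −0.74 over the 54 windows, −0.05 over all windows and −0.003 over distinct windows. Many of the 54 overlap and repeat the same reads. With 1 window for each of the 24 start clusters tested, the median was −0.14. A ratio of 0 stands for the middle of the libraries and not for absence of the mark, since TMM sets that middle. With library totals alone the median over all windows moved to −0.17 and with DESeq2 to −0.22, and the windows higher in ChIP were then 13 and 12, with 32 lower in both. The windows that dropped out are at the 5′ end of RBL2.

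**Figure D1:**
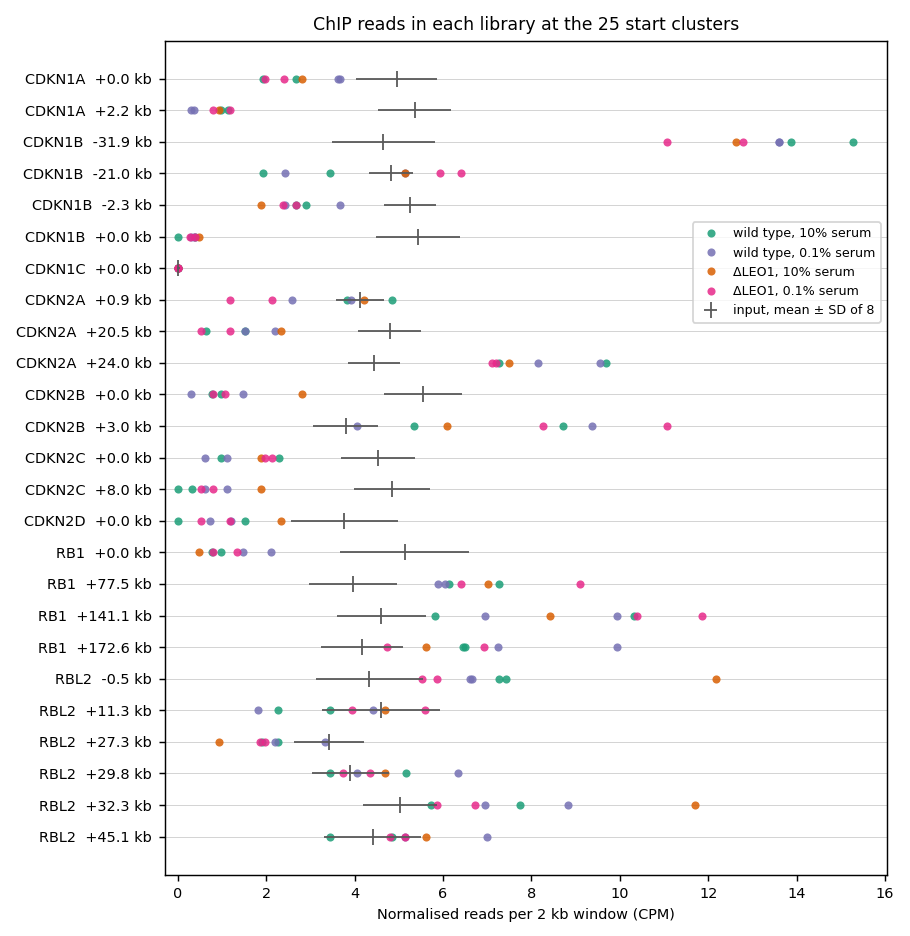
Normalised reads (CPM, horizontal axis) at the reference window of each of the 25 start clusters, named by gene and distance in kb from the RefSeq 5′ end; points are the 7 ChIP libraries coloured by condition, and grey bars are the mean ± SD of the 8 inputs. The ChIP points of the window 31.9 kb upstream of CDKN1B lie at 11.1 to 15.3 CPM and those at its 5′ end at 0 to 0.468, while the input means are 4.65 and 5.43.

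The position of the start separated the windows further. The 31 tested windows within 100 bp of a RefSeq start, which come from all 8 genes, had 27 lower in ChIP and 4 higher, with a median of −1.43. The 23 tested windows at other starts, from 5 genes, had 5 lower, 10 higher and 8 not called, with a median of 0.37. Overlapping windows share reads, so these counts are not counts of independent sites. Over the 24 reference windows tested, 1 for each start cluster, 11 were lower, 8 higher and 5 not called. Of all distinct windows tested, 37.7% were lower and 37.4% higher.

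**Figure D2:**
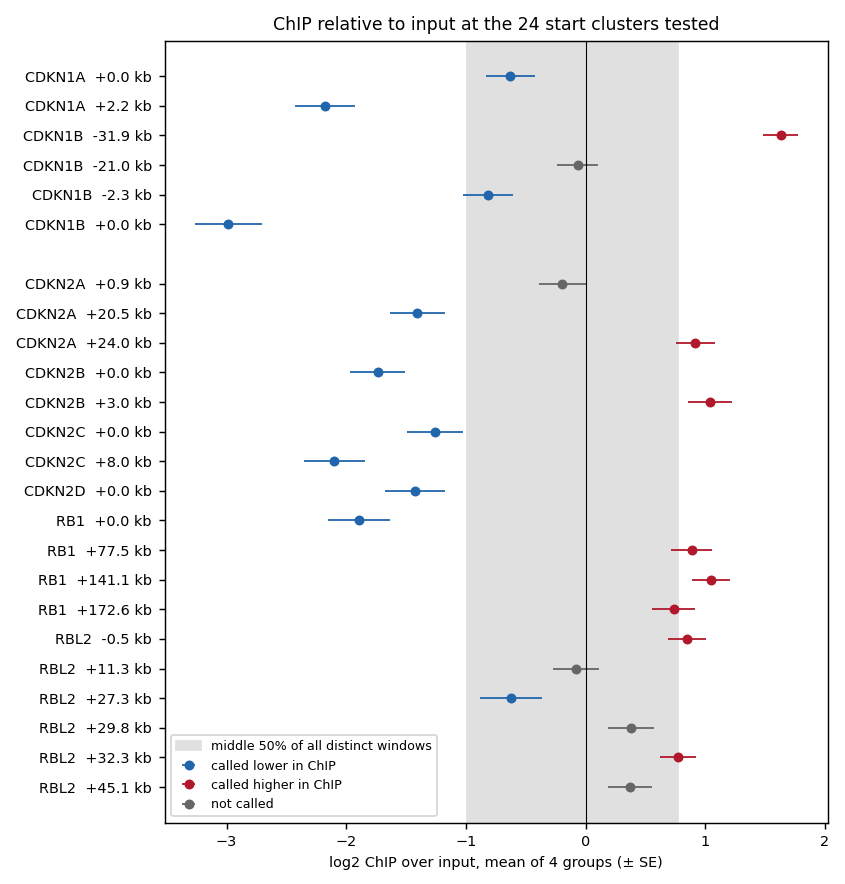
Log2 ratio of ChIP over input (horizontal axis, mean of the 4 conditions ± SE) at the reference windows of the 24 start clusters tested, with the middle 50% of all distinct windows shaded. The 5′ start of CDKN1B is lowest at −2.99 and the start 31.9 kb upstream of it is highest at 1.63.

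Among the Cip/Kip genes, the 5′ end of CDKN1B had the least ChIP signal of any reference window tested. Its window (chr12:12716368-12718368) held 1 and 0 reads in the wild type 10% serum libraries, 1 and 1 in wild type 0.1% serum, 1 in ΔLEO1 10% serum, and 1 and 1 in ΔLEO1 0.1% serum. The inputs held 12 to 53 reads there. The sum of 6 ChIP reads has an exact 95% Poisson interval of 2.2 to 13.1, which covers counting error only. The log2 ratio was −2.99 ± 0.28, and 0.173% of distinct windows tested had a lower one. At so few reads, the prior count of 2 added in the fit shrinks this ratio and with it the SE, so both are rough. The windows 0.5 kb further in lay at −3.24 and −3.28.

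The annotated CDKN1B starts upstream of that promoter lie inside GPR19, which encodes an orphan G protein-coupled receptor, and differed from it. The farthest, 31.9 kb upstream (chr12:12684498-12686498), had 40 and 43 ChIP reads in wild type 10% serum, 45 and 37 in wild type 0.1% serum, 27 in ΔLEO1 10% serum, and 48 and 28 in ΔLEO1 0.1% serum. In CPM this was 13.3 ± 1.30 (SD, n = 7) against 4.65 ± 1.17 in the inputs (n = 8), and every ChIP library lay above the highest input at 6.57. The log2 ratio was 1.63 ± 0.14, and 99.7% of distinct windows had a lower ChIP level. At 21.0 kb upstream the ratio was −0.07 ± 0.17 (adjusted p = 0.735), and at 2.3 kb it was −0.82 ± 0.21. The windows of CDKN1B thus ran from near the top of the table to near its bottom within 31.9 kb.

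**Figure D3:**
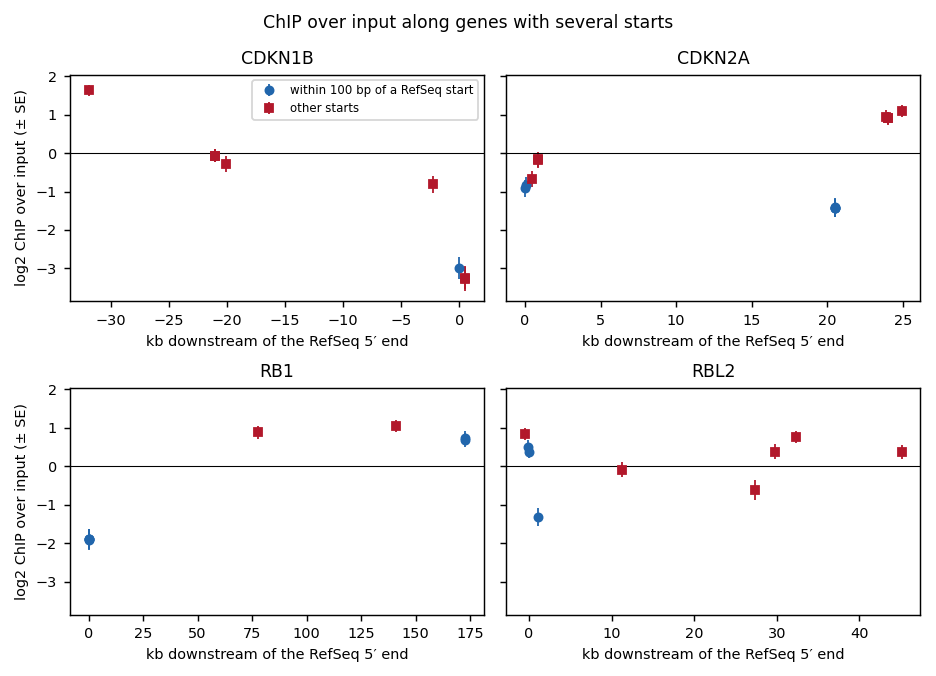
Log2 ratio of ChIP over input (vertical axis, ± SE) against distance in kb from the RefSeq 5′ end (horizontal axis) for all windows of CDKN1B, CDKN2A, RB1 and RBL2, with circles for windows within 100 bp of a RefSeq start and squares for other starts. Of the circles, 4 lie above 0, at the internal RB1 start and at the 5′ end of RBL2.

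CDKN1A, which is induced by DNA damage, had low ChIP signal at one of its start clusters and a level near the middle of the table at the other. The window of the RefSeq start shown by most rows (chr6:36677710-36679710) held 1 to 3 ChIP reads per library and 19 to 60 input reads, a log2 ratio of −2.18 ± 0.25. The upstream cluster (chr6:36675460-36677460), at the RefSeq 5′ end 2.2 kb away, held 5 to 12 ChIP reads against 21 to 48 in input, with a ratio of −0.63 ± 0.21, and 46.4% of distinct windows had a lower ChIP level. The window of the first cluster is shared with the noncoding gene DINOL and that of the second with PANDAR, whose reads cannot be told apart from those of CDKN1A here.

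CDKN1C, an imprinted gene, could not be compared. Of its 6 windows on chromosome 11, the 5 at the RefSeq 5′ end held 0 ChIP reads in every library and at most 1 input read, and the 6th, 1.1 kb inside the gene, held 0 to 2 ChIP and 0 to 7 input reads. The 5 windows on the alternative contig held 0 reads in all libraries. A count of 0 was taken to allow up to 3 reads per library (a one-sided limit), and the inputs show that this region was not covered, so its ChIP signal was not detectable at any depth reached here.

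In the INK4 genes, CDKN2A and CDKN2B showed low signal at their promoters and higher signal toward their 3′ ends. The p16 start of CDKN2A (chr9:21973827-21975827) held 4 and 2 ChIP reads in wild type 10% serum, 5 and 6 in wild type 0.1% serum, 5 in ΔLEO1 10% serum, and 2 and 3 in ΔLEO1 0.1% serum. Its log2 ratio was −1.41 ± 0.23. The window 24.0 kb downstream of the 5′ end (chr9:21970332-21972332), beyond the p16 start, held 19 and 30, 27 and 26, 16, and 27 and 18 reads in the same order of conditions, or 8.06 ± 1.12 CPM against 4.44 ± 0.59 in input. Every ChIP library was above the highest input there (7.11 against 5.41 CPM), and the ratio was 0.92 ± 0.16.

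The ARF start gave less low values than the p16 start. The window at the RefSeq 5′ end of CDKN2A (chr9:21994301-21996301) had a log2 ratio of −0.91 ± 0.22, and the reference window of that cluster, centred 0.9 kb inside the gene, had −0.19 ± 0.19 (adjusted p = 0.36). The latter held 10 and 15 ChIP reads in wild type 10% serum, 13 and 7 in wild type 0.1% serum, 9 in ΔLEO1 10% serum, and 8 and 3 in ΔLEO1 0.1% serum. This start faces CDKN2B-AS1, a noncoding RNA gene on the other strand, and reads of both genes cannot be told apart there.

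CDKN2B repeated the arrangement of CDKN2A over a shorter distance. Its 5′ window (chr9:22008272-22010272) held 2 and 3 ChIP reads in wild type 10% serum, 1 and 4 in wild type 0.1% serum, 6 in ΔLEO1 10% serum, and 4 and 2 in ΔLEO1 0.1% serum, with a log2 ratio of −1.74 ± 0.23. The window 3.0 kb downstream (chr9:22005271-22007271) held 14 and 27 reads in wild type 10% serum, 31 and 11 in wild type 0.1% serum, 13 in ΔLEO1 10% serum, and 31 and 28 in ΔLEO1 0.1% serum. Its ratio was 1.04 ± 0.18, and its libraries spread from 4.05 to 11.1 CPM, the extremes both in 0.1% serum. CDKN2C was low at both clusters, −1.26 ± 0.23 at the 5′ end and −2.10 ± 0.26 at the start 8.0 kb inside, with 0 to 8 ChIP reads per library. CDKN2D was low at its only cluster, with 0 to 5 ChIP reads against 5 to 51 input reads and a ratio of −1.43 ± 0.25.

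Of the pocket protein genes, RB1 was low at its 5′ end and above input at every start inside the gene. The 5′ end of RB1 (chr13:48302751-48304751), shared with the divergent transcript RB1-DT, held 1 to 7 ChIP reads and 8 to 53 input reads, a log2 ratio of −1.89 ± 0.26. The starts inside this gene of 178140 bp had ratios of 0.89 ± 0.17 for 77.5 kb, 1.05 ± 0.16 for 141.1 kb and 0.74 ± 0.18 for 172.6 kb downstream. The start at 141.1 kb (chr13:48443828-48445828), where LPAR6 lies within RB1, held 27 and 18 ChIP reads in wild type 10% serum, 23 and 27 in wild type 0.1% serum, 18 in ΔLEO1 10% serum, and 39 and 30 in ΔLEO1 0.1% serum.

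RBL2 was the only gene of the 8 whose RefSeq 5′ end had a positive ratio, and the call there was marginal. The window centred there (chr16:53433471-53435471) held 19 and 17 ChIP reads in wild type 10% serum, 16 and 12 in wild type 0.1% serum, 16 in ΔLEO1 10% serum, and 13 and 10 in ΔLEO1 0.1% serum, a log2 ratio of 0.39 ± 0.18 (adjusted p = 0.0392). This call was lost under 15 of 20 alternatives, with adjusted p of 0.0505 to 0.323, among them library totals, DESeq2 and leaving out any 1 of 6 ChIP libraries, while the ratio stayed positive. By condition the ratio was 0.42, 0.53 and 0.85 in wild type 10%, wild type 0.1% and ΔLEO1 10% serum and −0.26 in ΔLEO1 0.1% serum. The reference window 0.5 kb upstream (chr16:53432977-53434977) was higher, at 0.85 ± 0.16, and the window of the other RefSeq start, 1.1 kb downstream (chr16:53434619-53436619), was low, at −1.31 ± 0.24 with 3 to 8 ChIP reads. These 3 windows overlap and share reads. In the body of RBL2, 1 of 5 starts was higher than input (0.77 ± 0.15 at 32.3 kb), 1 was lower (−0.62 ± 0.26 at 27.3 kb) and 3 were not called.

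Most of the called windows had a ratio of the same sign in each condition. All 32 windows lower in ChIP had a negative ratio in each of the 4 conditions, and 12 of the 14 higher windows had a positive one in each. The 2 exceptions were the RBL2 windows within 100 bp of the 5′ end, both negative in ΔLEO1 0.1% serum alone. The called windows were picked by the mean of these same 4 ratios, so agreement in sign is partly built in. Windows not called are left out of these counts. Among them, the CDKN1B window 21.0 kb upstream went from −0.58 in wild type 10% serum to 0.53 in ΔLEO1 0.1% serum. The conditions share no libraries, but ΔLEO1 10% serum rests on 1 ChIP library, which was assumed to vary like the others.

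The CpG content of the promoters gave a yardstick for these values. Over the 23129 RefSeq promoters of 300 bases that matched a window tested, the median log2 ratio fell from 0.64 for 0 to 4 CpG to −0.83 for 20 to 29 CpG and −1.10 for 30 or more. Of the 12 promoters, 7 lay below the lower quartile of their class, 4 within the middle 50% and 1 above. CDKN1B, with 29 CpG, lay below a lower quartile of −1.65, as did CDKN1A with 29 and CDKN2B with 25. The 3 promoters of CDKN2C, with 8, 37 and 11 CpG, and the downstream one of RBL2, with 11, lay below those of their classes too. CpG was counted in 300 bases, while the ratio comes from a window of 2000 bp. The windows of the CDKN2C promoters with 37 and 11 CpG overlap, as do those of RBL2, so the 12 promoters are not independent. The p16 and ARF starts of CDKN2A, with 26 and 28, and CDKN2D, with 36, lay within the middle 50%. The 5′ start of RBL2, with 27 CpG and a ratio of 0.39, lay above the upper quartile of −0.01, and the internal RB1 start, with 0 CpG, lay near its class median. The string TTTNGCGC, an E2F-like motif read on both strands, was in 0 of the 12 promoters and in 1.79% of all 35116, which says only that these letters are not in the windows read.

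**Figure D4:**
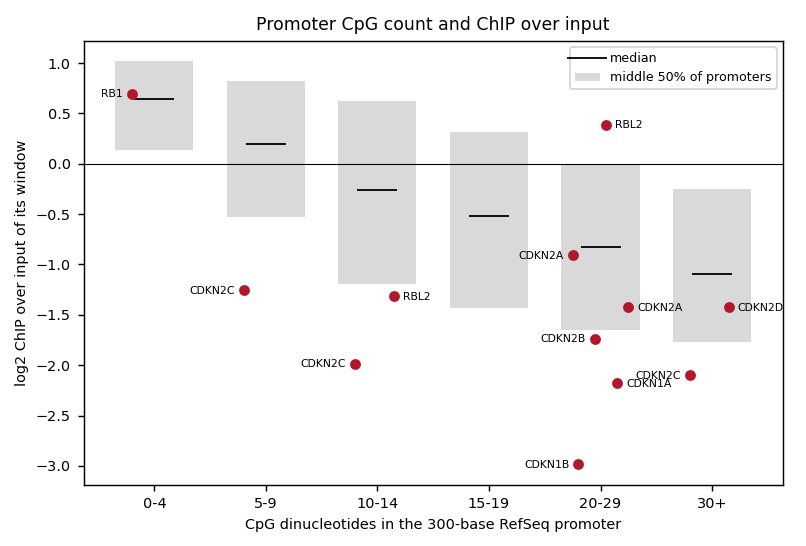
Log2 ratio of ChIP over input of the matching window (vertical axis) for RefSeq promoters grouped by CpG count (horizontal axis); grey boxes span the middle 50% and black lines the median of all promoters in a group, and red points are the 12 promoters of the CDK inhibitor and pocket protein genes. The RBL2 point at 27 CpG is the only one above the box of its group.

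The study asked how loss of LEO1 affects H3K9 methylation in quiescent cells. With scaling to fly spike-in chromatin, it reported globally higher H3K9me2 in quiescent ΔLEO1 cells. No spike-in was used here, so such a global shift cannot be seen in the values below. Of the 65 windows, 27 had enough ChIP reads to be tested, from CDKN1A, CDKN1B, CDKN2A, CDKN2B, RB1 and RBL2, and the counts below are over these only. The windows with the fewest ChIP reads, among them the 5′ ends of CDKN1B, CDKN2B, CDKN2C, CDKN2D and RB1 and the p16 start, were not tested. None was called between ΔLEO1 and wild type in 0.1% serum by edgeR, where 0.347% of all windows were, and the smallest adjusted p was 0.460. Unadjusted p-values in edgeR were under 0.05 for 2 of the 27 and 10.7% of all windows. In DESeq2 this was so for 0 of the 27 and 1.27% of all windows. DESeq2 called 0 windows of the whole table in this and every other contrast of ChIP between conditions. The median log2 fold change was −0.27 over the 27 and −0.01 over all windows, with 7 positive and 20 negative. The 27 come from 15 start clusters, and windows that overlap share reads, so these signs are not independent. With totals of the peak table as library sizes the median of all windows moved to 0.26, and that of the 27 to 0.01.

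The window with the smallest p in that contrast was the CDKN1B start 21.0 kb upstream (chr12:12695347-12697347). It held 8 and 14 reads in wild type 0.1% serum and 24 and 15 in ΔLEO1 0.1% serum, a log2 fold change of 0.67 ± 0.34 (adjusted p = 0.460). In CPM this was 2.42 and 5.15 in wild type against 6.40 and 5.93 in ΔLEO1. The lowest estimate of a reference window was 0.9 kb inside CDKN2A, in the cluster of the ARF start, at −0.71 ± 0.43 (adjusted p = 0.567). It held 13 and 7 reads in wild type against 8 and 3 in ΔLEO1. The windows within 100 bp of the ARF start itself had too few ChIP reads to be tested, and with no filter gave −0.13 and −0.04. The 3′ window of CDKN2B gave 0.40 ± 0.27, the LPAR6 window of RB1 0.38 ± 0.25, and the CDKN2A window 24.0 kb downstream −0.27 ± 0.27, with adjusted p of 0.627 to 0.776.

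**Figure D5:**
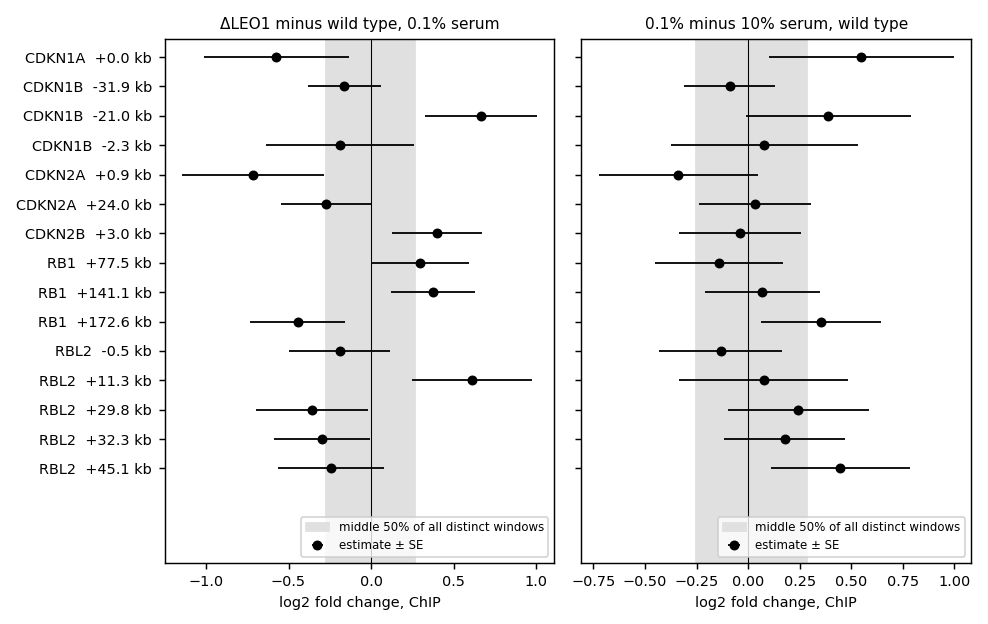
Log2 fold change of ChIP (horizontal axis, ± SE) at the 15 start clusters with enough reads, for ΔLEO1 minus wild type in 0.1% serum (left) and for 0.1% minus 10% serum in wild type (right), with the middle 50% of all distinct windows shaded. No point passed the test, and the estimates lie between −0.71 and 0.67 on the left.

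In 10% serum, where ΔLEO1 had 1 ChIP library, 0 of the 27 windows were called between genotypes by edgeR and 1 had an unadjusted p under 0.05. The table as a whole had 0.0295% called and 8.39% with an unadjusted p under 0.05. The smallest p belonged to the RBL2 start 32.3 kb downstream, where wild type held 15 and 24 reads and the ΔLEO1 library 25, or 5.73 and 7.74 against 11.7 CPM (log2 fold change 0.72 ± 0.36, adjusted p = 0.583). For the interaction of genotype and serum, the estimates ran from −1.02 to 0.61 over the 27 windows, and that RBL2 start gave −1.02 ± 0.46.

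Serum withdrawal in wild type cells changed 0.27% of all windows and 0 of the 27 by edgeR. Unadjusted p was under 0.05 for 9.4% of all windows in edgeR and 1% in DESeq2, and for 1 of the 27 in each. That window in edgeR was the CDKN1B start 20.1 kb upstream (chr12:12696220-12698220), with 4 and 4 reads in 10% serum and 14 and 12 in 0.1% serum, or 1.53 and 1.29 against 4.23 and 4.41 CPM. Its log2 fold change was 1.26 ± 0.43 and its adjusted p 0.230. It overlaps the window at 21.0 kb, for which the fold change was 0.39 ± 0.40. The median over the 27 was 0.08 and over all windows 0.01. This contrast and the genotype contrast in 0.1% serum share the wild type 0.1% serum libraries.

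In ΔLEO1 cells, 0 of the 27 windows were called for serum by edgeR, and 0.0633% of all windows were. Unadjusted p in edgeR was under 0.05 for 4 of the 27, all in RBL2, and for 9.27% of all windows. In DESeq2 this was so for 0 of the 27 and 1.05% of all windows. Windows near the 5′ end of RBL2 overlap and share reads, so the 4 found by edgeR are not independent. The smallest p belonged to the reference window at the 5′ end of RBL2, with 26 reads in the 10% serum library and 22 and 14 in 0.1% serum, or 12.2 against 5.86 and 5.53 CPM (log2 fold change −1.002 ± 0.36, adjusted p = 0.346). The start 32.3 kb downstream in the same gene gave −0.84 ± 0.36 (adjusted p = 0.449), with 11.7 CPM against 5.86 and 6.72. Both rest on the single ΔLEO1 10% serum library, which was the highest of the 7 ChIP libraries at both windows.

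The inputs were compared in the same way, because a difference in DNA content or coverage would also move ChIP reads. Of the 54 windows tested, 0 were called in any of the 4 input contrasts by edgeR. In each, 0 to 4 of the 54 and 3.96% to 10.2% of all windows had an unadjusted p under 0.05. The whole table had 0% called between genotypes in 0.1% serum, 0.0021% in 10% serum, 0.0235% for serum in wild type and 0% for serum in ΔLEO1. DESeq2 called 0 windows in these contrasts, with 0 or 1 of the 54 and 0.411% to 1.5% of all windows under an unadjusted p of 0.05. The smallest p was at the RB1 start 77.5 kb downstream, where wild type inputs were higher in 0.1% than in 10% serum by 0.85 ± 0.28 on the log2 scale (adjusted p = 0.210), while its ChIP reads differed by −0.14 ± 0.31 in that contrast.

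Wider regions gave more reads per test. Distinct windows were grouped into bins of 1 Mb and their reads added up, and the 9 genes lie in 9 bins, since a bin border falls between CDKN2A and CDKN2B. Between ΔLEO1 and wild type in 0.1% serum, 0 of the 9 bins were called by edgeR, against 5.65% of all bins, and DESeq2 called 0. In edgeR 1 of the 9 had an unadjusted p under 0.05, against 22.1% of all bins. The bin of CDKN1A (chromosome 6, 36 to 37 Mb) had the smallest p, at 0.25 ± 0.07 (adjusted p = 0.0658). For serum in wild type, 0 of 9 were called by edgeR, against 3.69% of all bins. An unadjusted p under 0.05 was found for 2 of the 9 and 23% of all bins. There the bin of CDKN2C (chromosome 1, 50 to 51 Mb) was lower in 0.1% serum by a log2 fold change of −0.39 ± 0.10 (adjusted p = 0.0513), and it passed the test with library totals alone (adjusted p = 0.0469), with DESeq2 (adjusted p = 0.0437) and with the replicate letter as a block (adjusted p = 0.0249). It did not pass without wild type 10% ChIP A (−0.26, adjusted p = 0.253), wild type 0.1% ChIP A (−0.35, adjusted p = 0.228) or wild type 0.1% ChIP B (−0.44, adjusted p = 0.137). This bin holds 53 windows, of which 3 belong to CDKN2C, so it describes the surroundings and not that gene. In the inputs of ΔLEO1 against wild type, the 9 bins differed by −0.06 to 0.03, and 0 were called by edgeR or DESeq2. In edgeR 3.17% of all bins were called. An unadjusted p under 0.05 in edgeR was found for 0 of the 9 and 10.5% of all bins.

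The deposited table of 16092 merged peak regions holds 7 that are annotated to one of these genes as the nearest, 4 to CDKN2B, 2 to RB1 and 1 to RBL2. Which libraries entered peak calling is not given in the sources used here, so these regions are not treated as separate evidence of signal. The one that overlaps a window of its own gene lies in an exon of CDKN2B (chr9:22005700-22006344), and there ChIP was 3.43 times input in CPM, against a median of 3.90 over all peak regions. It held 8 and 18 reads in wild type 10% serum, 20 and 6 in wild type 0.1% serum, 9 in ΔLEO1 10% serum, and 17 and 20 in ΔLEO1 0.1% serum, so the wild type 0.1% libraries spanned most of the range. A further region, annotated to an intron of GPR19 (chr12:12684285-12685762), covers the CDKN1B start 31.9 kb upstream and had 3.57 times input. The other CDKN2B regions lie 16005 to 188997 bp upstream of its start, in a LINE1 and 2 LTR elements, and the RB1 regions lie 13477 and 14792 bp inside the gene and are annotated as CpG.

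Other genes of the same pathway were also lower in ChIP than in input at most windows. The list held 29 genes, namely cyclins, CDKs, E2F and DP factors, RBL1, subunits of the MuvB core of the DREAM complex, the ubiquitin ligase proteins MDM2 and SKP2, the kinase DYRK1A and the phosphatase CDKN3. Relative to input, 166 of their 263 windows tested were lower in ChIP and 24 higher, with a median log2 ratio of −0.82. No window of these genes was called by edgeR for ChIP between genotypes in 0.1% serum or for serum in wild type, where 133 were tested. Unadjusted p was under 0.05 for 21 and 9 of them, against 10.7% and 9.4% of all windows. Cytosolic ribosomal protein genes, which are active in all cells, had 455 of 619 windows lower and 31 higher (median −0.99), and olfactory receptor genes, which fibroblasts do not use, had 7 of 468 lower and 391 higher (median 1.00). The median over the 54 windows of the CDK inhibitor and pocket protein genes (−0.74) lay on the side of the ribosomal protein genes. With 1 window per start cluster their median was −0.14. The downstream windows of CDKN2A (0.92), CDKN2B (1.04) and RB1 (0.74 to 1.05) lay within the middle 50% of olfactory receptor windows (0.64 to 1.27), and the upstream CDKN1B window lay above it. The middle 50% of all distinct windows was −0.99 to 0.77, so the RB1 value of 0.74 lay within that range as well.

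The profile of 1 window across libraries was compared with the rest of the table as a description. Of the windows of the start cluster with most rows in each gene, 1 per gene, that of CDKN2A 24.0 kb downstream had the highest mean ChIP CPM, and the most similar windows over the 7 ChIP libraries were those of SRGNP1, BBS4 and TRA2B, with Pearson correlations of log2 CPM of 0.989, 0.986 and 0.986. They were picked among 159465 windows, 381 of which had a correlation above 0.9, and all points share library depth.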

How the data were processed

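The data are ChIP-seq and input libraries of BJ-5ta cells, grouped by the labels into wild type or ΔLEO1, 10% or 0.1% serum, and ChIP or input. The authors deposited raw read counts per library, whole numbers with no scaling, over 272902 TSS windows of 2000 bp and 16092 merged peak regions. The submitters' processing notes name bcl2fastq 2.20.0.422, STAR 2.7.10a, HOMER and the builds hg38 and dm6, and the study's methods describe csaw counts normalised to fly spike-in chromatin. How duplicate and multi-mapping reads were treated is not given in the sources used here, and no spike-in was used, so a shift of the mark across the whole genome cannot be seen.

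Counts were tested with edgeR 4.0.16 in R 4.3.3 (quasi-likelihood F-test, two-sided) on the whole table, with TMM scaling, filterByExpr with a minimum count of 10, a prior count of 2 and Benjamini-Hochberg adjustment over all windows, and adjusted p under 0.05 was called. Standard errors were taken from the F statistic. ChIP contrasts used 7 libraries, input contrasts 8, and ChIP over input all 15 in 1 fit. Members, gene lists and the left-out library were chosen with earlier results of these data known. From the list of other pathway genes, 1 gene is not reported here. The reference window of a start cluster is the coordinate shared by most rows, ties going to the lowest start. Values in every library are given for reference windows, and other windows are named where they had the smallest p or lie at a RefSeq start, the latter chosen after values were seen. RefSeq starts come from a table of build GRCh38.p14 and lay at most 23 bp from a window centre. Simulated counts with 200 changed windows tested the code. For the genotype contrast in 0.1% serum, over 159524 windows, 3.5% of changes of 1 log2 unit and 69% of changes of 2 were called, and for serum in wild type 12% and 72.5%. For ChIP over input, over 237580 windows, 69% of changes of 1 unit were called. Intervals cover counting error only, since reads are not independent molecules. Alternatives were no filter, no TMM, peak-table totals, DESeq2 1.42.0, a replicate block, all 8 ChIP or all 16 libraries, distinct windows, input differences taken off, and leaving out each library.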

Additional observations from a re-analysis of the deposited data

How the results depend on the processing

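Under every alternative run, 0 windows of the CDK inhibitor and pocket protein genes were called in the genotype, serum and input contrasts, and 44 to 47 were called for ChIP over input, of 54 tested (60 with no filter). Counts over the whole table moved. Between ΔLEO1 and wild type in 0.1% serum, 554 windows became 2209 with peak-table totals (2062 higher and 147 lower, against 130 and 424), 27 with the input difference taken off, and 0 with DESeq2 or all 8 ChIP libraries. In 10% serum, 47 became 14 with the input difference taken off and 0 with DESeq2 or 8 libraries. For serum in wild type, 431 became 5 with 8 libraries and 0 with DESeq2 or the input difference taken off. For serum in ΔLEO1, 101 became 66 with the replicate block and 0 with DESeq2, 8 libraries or the input difference taken off. In the inputs, DESeq2 called 0 windows where edgeR called 5 between genotypes in 10% serum and 56 for serum in wild type. The latter became 105 with no filter and 167 with the replicate block, and serum in ΔLEO1 inputs went from 0 to 6 and 5. In bins of 1 Mb, DESeq2 called 108 for genotype in 0.1% serum (164 in edgeR) and 60 for serum in wild type (107 in edgeR), where the block called 163. Of the 9 bins, 1 was then called without TMM, with DESeq2 and with the block.

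Leaving out each library in turn gave 47 to 568 windows for genotype in 0.1% serum (lowest without wild type 0.1% ChIP A), 24 to 49 in 10% serum, 7 to 461 for serum in wild type (lowest without wild type 0.1% ChIP A) and 29 to 144 in ΔLEO1. Input contrasts gave 0 to 62 and 0 to 1368 for genotype in 0.1% and 10% serum, and 0 to 1445 and 0 to 80 for serum in wild type and ΔLEO1, the highest of each without a ΔLEO1 10% input (either one for 62 and 1445, B for 1368 and 80). Bins gave 35 to 181, 2 to 121 and 52 to 163, and 0 to 1 of the 9 for serum. Leaving out ΔLEO1 10% ChIP B gives no value for contrasts with that condition.

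Single windows that changed sign were all uncalled. With peak-table totals the genotype change in 0.1% serum became positive for CDKN1B (0.13 at 31.9 kb, 0.059 at 2.3 kb upstream), CDKN2A (0.012 at 24.0 kb) and RBL2 (0.088 at −0.5 kb, 0.030 at 45.1 kb), and the serum change in wild type for CDKN1B (0.061), CDKN2B (0.10), RB1 (0.0030) and RBL2 (0.010). With the input difference taken off, CDKN1B gave 0.032 for genotype, and serum gave −0.18 for CDKN1B, −0.028 for CDKN2A, −0.12 for RB1, and 0.18 and −0.014 for RBL2. Without single libraries the serum change ranged from −0.11 to 0.82 (CDKN1B, 21.0 kb), −0.14 to 0.25 (CDKN2A), −0.72 to 0.34 (CDKN2B), −0.29 to 0.46 (RB1), and −0.49 to 0.55 and −0.089 to 0.53 (RBL2). For ChIP over input, the window centred at the 5′ end of RBL2 lost its call under 15 of 20 alternatives, the block and each of 6 ChIP libraries left out among them, and its neighbour within 100 bp under DESeq2. The RBL2 window at 27.3 kb lost its call without wild type 10% input A. Those at 29.8 and 45.1 kb gained one with the block or without ΔLEO1 10% input A, and the latter also without wild type 10% input A or wild type 0.1% input B. Differences between A and B were barely correlated across conditions (correlations of 0.0036 to 0.017 for ChIP and 0.0125 to 0.111 for input), so the block by letter is given for completeness. For ChIP over input the block joined ChIP and input of the same condition and letter, a pairing that these correlations do not examine. The causes were not tested.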
